A study of Mus musculus with 24 samples.

Results

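The 10 genes examined here handle nitrogen in the mouse liver and were followed across a study of Western diet and inhaled vinyl chloride. They were taken by symbol from a series table of 24421 gene entries: Cps1, Otc, Ass1, Asl and Arg1 of the urea cycle, Gls2, Hal and Sds of periportal amino acid breakdown, and Glul and Oat of the pericentral zone. All 10 symbols had a row, Ass1 was listed at 0 in all 24 libraries, and the other 9 passed the filter on low counts. RNA came from the livers of male C57Bl/6J mice fed a control diet with 13% fat (CD) or a Western diet with 42% fat (WD). The VC groups inhaled vinyl chloride, a gas used to make plastic, during 12 weeks (6 hours daily, 5 days each week) at a concentration of 0.85 ± 0.1 ppm. The groups killed at that point were w12_CD, w12_CD+VC, w12_WD and w12_WD+VC. The groups m12_CD, m12_CD+VC, m12_WD and m12_WD+VC were killed after 9 further months of housing on the same diets, with 12 months of feeding in all. Groups without VC breathed air, all mice were fasted for 4 hours before death, and the labels give no age. There were 3 libraries in each group. The labels do not say that the libraries of a group came from separate animals, and p-values then measure only library-to-library spread, which may be technical.

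As background, the liver turns ammonia, which is toxic, into urea. Cps1 and Otc work inside mitochondria, where Cps1 joins ammonia to bicarbonate and Otc passes the product to ornithine, while Ass1, Asl and Arg1 complete the cycle in the cytosol. Hepatocytes divide this work by position along the liver lobule: those near the portal vein run the urea cycle and break amino acids down, and a thin ring of cells around the central vein uses glutamine synthetase, the product of Glul, to bind the ammonia that is left. Gls2 releases ammonia from glutamine, Hal starts histidine breakdown, Sds breaks serine down, and Oat converts ornithine to a precursor of glutamate and lies largely in the same central ring as Glul.

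The libraries were shallow for RNA sequencing. They held 126160 to 962493 counts each, except w12_WD 3 with 607, which had 1 count on any of these genes and is left out of all levels below, so that w12_WD has 2 libraries there. It stayed in the fit of the test. In the other 23 libraries, 3 counts equalled 3.09 to 25.5 CPM, the unit of the levels below, which sets a count against the library's TMM-scaled total. Hepatocyte transcripts were present in every one of these 23 libraries. Of the 5 red cell markers, the 4 globin entries were at 0 in all, and the other, Alas2, lay at 6.88 to 57.4 CPM. Entries with exons over a gene of the opposite strand took 76.5% of all counts and entries without such an overlap took 19.5%. The share of the second class was 15.4% ± 3.54 in m12_CD. It was 25.6% ± 3.86 in m12_WD, 26.3% ± 4.60 in m12_CD+VC and 20.4% ± 2.39 in m12_WD+VC (mean ± SD, n = 3), and its lowest value, 11.3%, was in m12_CD 1. Results that rest on m12_CD 1 are given with and without it.

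Levels were compared between genes per kilobase of exon, as medians over the 23 libraries. Arg1, which splits arginine into urea and ornithine, had the highest median at 84.8 CPM per kilobase. It was followed by Gls2 at 46.2, Oat at 42.0, Cps1 at 35.6, Glul at 33.2, Sds at 27.9, Asl at 20.4, Otc at 10.4 and Hal at 3.27 CPM per kilobase. Not all neighbours in this order were separated. Arg1 was above Gls2 in 20 of 23 libraries, Asl above Otc in 20 and Otc above Hal in 18, whereas Oat was above Cps1 in 10 libraries, Cps1 above Glul in 12 and Glul above Sds in 11. For Ass1, the enzyme that joins citrulline to aspartate, 0 counts in a library allow up to 3 counts, which covers counting error only. Its row was also at 0 over the 8606009 counts of all 24 libraries together, and the reason was not tested. Asl, the next enzyme of the cycle, had 851 counts over all libraries. Exons of Gls2, Glul and Sds overlap genes on the other strand, and no source used here gives the strand setting of the counting. Glul shares 116 bases with Teddm2, which had 112 counts in all and at most 11 in a library, against 970 counts for Glul. Gls2 shares 97 bases with Spryd4 and Sds shares 360 with Plbd2, which held 1127 and 1479 counts, so reads of these pairs may not be separated.

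**Figure D1:**
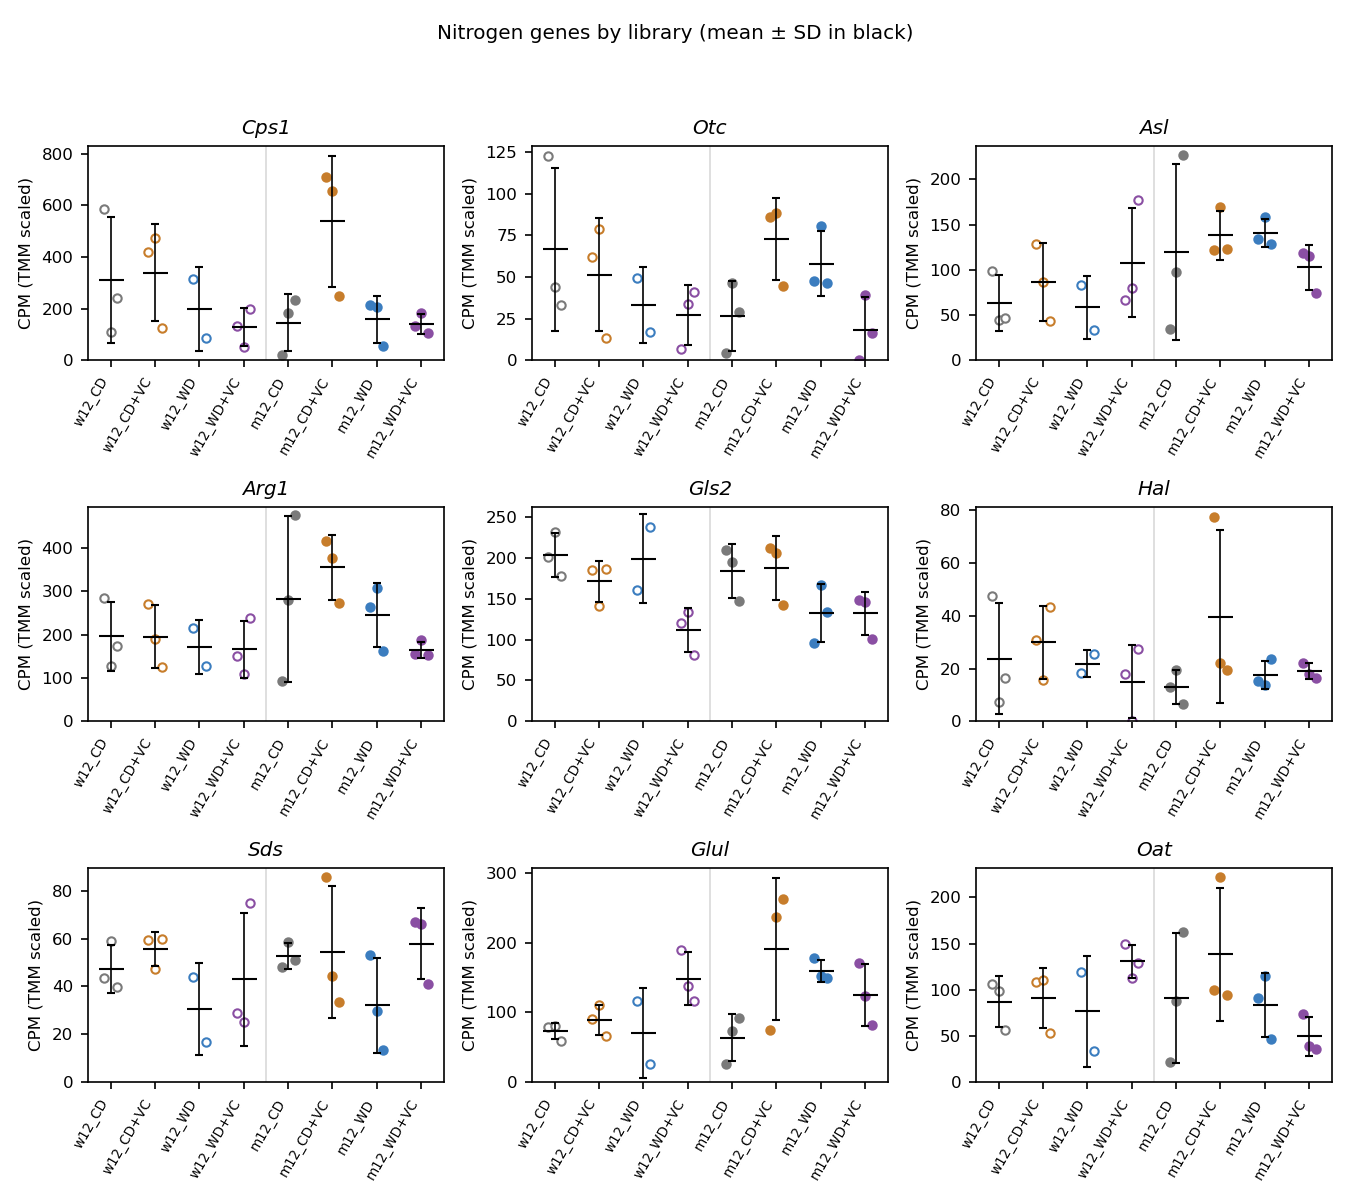
Level in CPM of the 9 genes with counts in each library, by group, with open points for 12 weeks, filled points for 12 months and black marks for the mean ± SD. Glul lay at 149 to 178 CPM in m12_WD and at 26.3 to 92.6 CPM in m12_CD, and Cps1 ranged from 21.9 to 711 CPM over the 23 libraries.

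Glul, glutamine synthetase, was the gene of the 10 that passed the test at 12 months. It was called higher with Western diet in mice that breathed air and with VC on the control diet, and its diet effect was called lower with VC than without. These 3 calls share the m12_CD libraries, and each was lost without m12_CD 1. Glul lies on chromosome 1 at 153899944-153909723 on the plus strand (GRCm38). Its level was 26.3, 73.1 and 92.6 CPM in m12_CD 1 to 3, and 178, 151 and 149 CPM in m12_WD. All 3 Western diet libraries lay above all 3 controls. The fitted difference was 1.27 ± 0.42 on the log2 scale (SE), a 2.42-fold rise (edgeR quasi-likelihood test, Benjamini-Hochberg adjusted p = 0.0259). In this comparison 24.5% of the 4198 genes tested were called. Of all 4198, 13.4% were called higher, and 19.7% were higher in every Western diet library than in every control. So 1 called gene of 9 is below the background. Without m12_CD 1 the difference was 0.87 (edgeR adjusted p = 0.184), and the call was also lost with no expression filter and without m12_CD 2, m12_WD 1 or m12_WD 2.

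With VC on the control diet, Glul was at 74.7, 236 and 262 CPM in m12_CD+VC. Replicates 2 and 3 lay above every m12_CD library, and replicate 1 lay between m12_CD 2 and m12_CD 3, so the groups overlapped. The difference was 1.51 ± 0.43 (log2, SE), or 2.85-fold (edgeR adjusted p = 0.0409). Here 5.22% of all genes were called and 4.1% were called higher, beside 1 of the 9 genes with Glul as that gene. Without m12_CD 1 the edgeR adjusted p was 0.225, without m12_CD+VC 2 it was 0.174 and without m12_CD+VC 3 it was 0.155. The call was also lost with limma-voom, with no filter, without w12_WD 3 in the fit and without m12_CD 2 or 3.

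Where both exposures were combined, Glul stood at 171, 123 and 82.1 CPM in m12_WD+VC. These libraries overlapped those of m12_CD+VC, m12_WD and m12_CD. The diet effect with VC minus the diet effect without it was -1.91 ± 0.59 for Glul (log2, SE; edgeR adjusted p = 0.0400). This interaction was called for 9.81% of all genes and lower for 6.48%, beside 1 of the 9. Against m12_CD+VC, Glul in m12_WD+VC differed by -0.63, with a 95% interval of -1.45 to 0.19 (edgeR adjusted p = 0.499), and against m12_WD by -0.40 (edgeR adjusted p = 0.748). The interaction was not called with limma-voom, with no filter, without w12_WD 3, or without any of m12_CD 1, m12_CD 2, m12_CD+VC 2, m12_CD+VC 3, m12_WD 1, m12_WD 2, m12_WD+VC 2 and m12_WD+VC 3, where the edgeR adjusted p reached 0.138.

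Levels of other markers moved with the same groups. Summed macrophage markers lay at 96.4 to 166 CPM in m12_CD and 599 to 798 in m12_WD, with 214 to 337 in m12_CD+VC and 356 to 564 in m12_WD+VC, and 6 of the 9 tested, out of 12, rose with Western diet without VC. Summed stellate cell markers, from the cells that make scar matrix, lay at 8.76 to 39.0 CPM in m12_CD and 204 to 236 in m12_WD, with 100.3 to 125 in m12_CD+VC and 98.5 to 181 in m12_WD+VC, and the 3 tested of 10 rose with Western diet without VC. Bile duct cell markers summed to 0 to 12.8 CPM in m12_CD and 83.2 to 202 in m12_WD, with Spp1 alone tested and Cftr at 0 throughout. The sum was mostly Spp1, at a mean of 127 CPM in m12_WD beside a mean sum of 148. Endothelial markers summed to 141 to 193 CPM in m12_CD and 338 to 353 in m12_WD, where 1 of 3 tested, Stab2, rose. Hepatocyte markers moved as well, at 6342 to 14126 CPM in m12_CD and 14075 to 27198 in m12_WD, with 22433 to 38688 in m12_CD+VC and 10092 to 13946 in m12_WD+VC. Of 12 tested, 4 rose with Western diet without VC, 6 rose with VC on the control diet and 8 had a lower diet effect with VC than without. Over all genes tested, 13.4% were called higher with Western diet without VC and 4.1% with VC on the control diet. A lower diet effect with VC was called for 6.48%. Without m12_CD 1, edgeR called 0 of 4763 genes for VC on the control diet, so those 6 calls were lost. It then called 645 genes for diet without VC, against 1028, and 137 for the interaction, against 412. The part of these cell type levels in the Glul results was not tested. In whole liver, fewer cells of a type and less RNA per cell cannot be told apart.

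**Figure D2:**
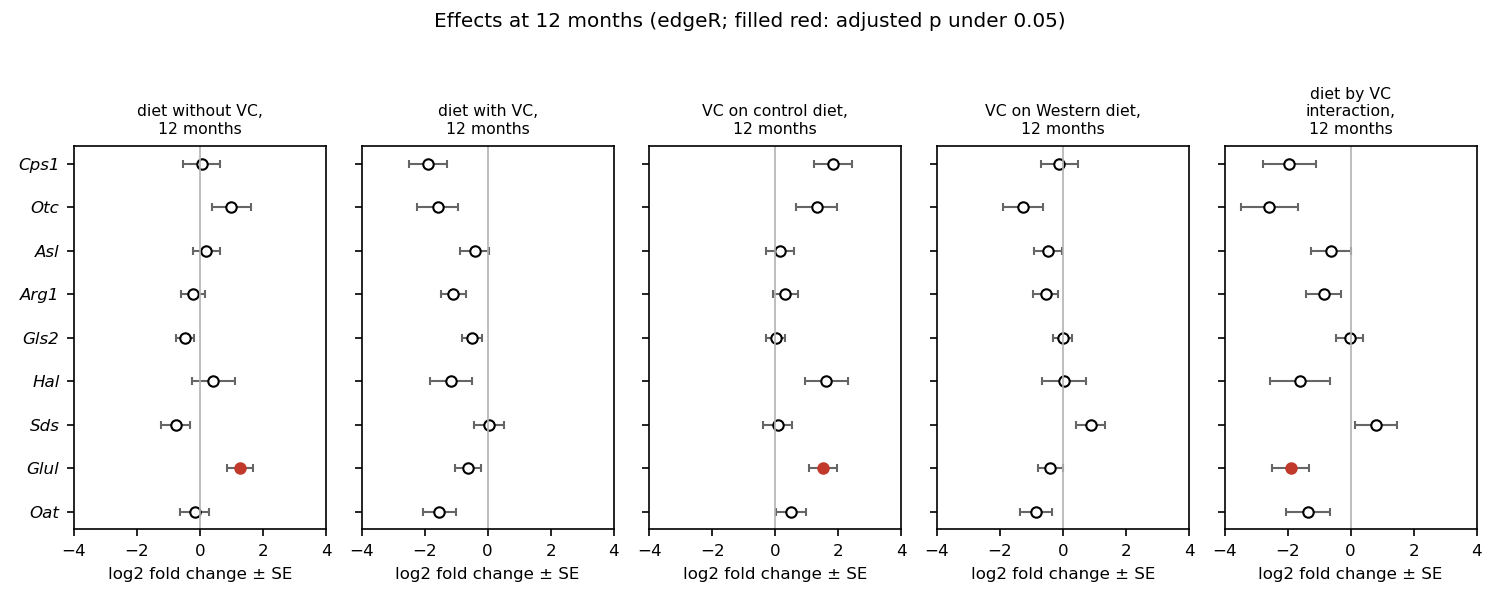
Fitted log2 fold change with its SE for each of the 9 genes in the 5 comparisons at 12 months, with filled red points for an edgeR adjusted p under 0.05. Red points belong to Glul alone, in diet without VC (1.27), VC on control diet (1.51) and the interaction (-1.91).

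Oat, ornithine aminotransferase, shares the central ring with Glul but had its lowest 12-month levels with both exposures. It lay at 21.9, 87.8 and 163 CPM in m12_CD, 99.5, 221 and 94.7 in m12_CD+VC, 90.7, 115 and 46.4 in m12_WD, and 74.3, 38.9 and 35.6 in m12_WD+VC. All 3 libraries of m12_WD+VC were below all 3 of m12_CD+VC, and m12_CD 1 was the lowest library of all. The difference between those groups was -1.53 ± 0.51 (log2, SE; edgeR adjusted p = 0.121). In diet with VC at 12 months 1.81% of genes were called, and none of the 9 was called by DESeq2 or by edgeR with its expression filter (without the filter, edgeR called Cps1). An unadjusted edgeR p under 0.05 was found for 4 of the 9 and for 14.7% of all genes. Limma-voom with quality weights called Oat there, at -1.47 with an adjusted p of 0.0419. At 12 weeks Oat had been at 149, 113 and 129 CPM in w12_WD+VC, above all 3 libraries of w12_CD+VC at 108, 110.3 and 53.3. Within the WD+VC groups Oat was lower at 12 months than at 12 weeks by -1.53 ± 0.51 (edgeR adjusted p = 0.166), with no overlap of libraries. In that comparison 0.786% of genes were called, 9.08% were lower without overlap, and limma-voom gave Oat an adjusted p of 0.0157.

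Promoter sequence is shown for the called gene, Glul, for Oat of the same zone, and for Hal and Otc of the portal side, so that the pair can be read beside genes of the other zone. Of the 10 genes, 5 had an entry in the RefSeq promoter table (Glul, Oat, Hal, Otc and Ass1, GRCm38.p6). Each line gives the 250 bases before the RefSeq start, 5′ to 3′ on the gene's strand: chr1:153899679-153899928 on the plus strand for Glul, chr7:132576399-132576648 on the minus strand for Oat, chr10:93488518-93488767 on the plus strand for Hal and chrX:10252055-10252304 on the plus strand for Otc. Capitals mark matches, on either strand, to CCAAT (the NF-Y box), TATAAA (the TATA box), CTTTGA (the core bound by TCF factors of Wnt signalling) and TTGCNNAA (the core bound by C/EBP factors).
Glul: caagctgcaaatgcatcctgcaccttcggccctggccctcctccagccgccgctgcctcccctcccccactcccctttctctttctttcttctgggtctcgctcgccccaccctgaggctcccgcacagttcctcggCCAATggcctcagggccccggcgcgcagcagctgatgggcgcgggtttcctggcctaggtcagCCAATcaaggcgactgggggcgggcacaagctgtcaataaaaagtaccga
Oat: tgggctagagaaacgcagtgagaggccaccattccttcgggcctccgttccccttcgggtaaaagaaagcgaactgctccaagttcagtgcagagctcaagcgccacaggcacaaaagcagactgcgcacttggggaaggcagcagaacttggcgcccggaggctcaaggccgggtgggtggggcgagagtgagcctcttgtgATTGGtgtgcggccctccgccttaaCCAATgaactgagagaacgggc
Hal: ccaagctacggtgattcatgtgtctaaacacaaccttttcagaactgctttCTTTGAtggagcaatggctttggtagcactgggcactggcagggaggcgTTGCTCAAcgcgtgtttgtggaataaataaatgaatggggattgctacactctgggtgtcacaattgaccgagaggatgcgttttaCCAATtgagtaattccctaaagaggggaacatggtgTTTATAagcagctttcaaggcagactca
Otc: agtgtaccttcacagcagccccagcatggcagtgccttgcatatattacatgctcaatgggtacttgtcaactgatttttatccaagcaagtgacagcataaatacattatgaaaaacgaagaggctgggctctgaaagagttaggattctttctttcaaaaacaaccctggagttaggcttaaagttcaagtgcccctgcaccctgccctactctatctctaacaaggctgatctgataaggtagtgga

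Glul holds CCAAT at 113 to 109 and at 50 to 46 bases before the start. Oat holds it at 47 to 43 on the other strand, read as ATTGG, and at 22 to 18. Hal has 1 CCAAT at 64 to 60, TATAAA on the other strand at 28 to 23, CTTTGA at 199 to 194 and TTGCNNAA at 150 to 143, and Otc has none of the 4 motifs in this window. Among 32851 promoter windows of the same length, 33.9% hold CCAAT, 12.4% TATAAA, 13.8% CTTTGA and 9.56% TTGCNNAA. No match overlaps another here, and a match is only a run of letters.

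Cps1, the first and rate-setting enzyme of the cycle, had its highest levels at 12 months in m12_CD+VC, but no comparison called it. It lay at 21.9, 183 and 233 CPM in m12_CD, 711, 657 and 248 in m12_CD+VC, 214, 206 and 53.6 in m12_WD, and 134, 183 and 107 in m12_WD+VC. All m12_CD+VC libraries were above all libraries of m12_CD and of m12_WD+VC, though m12_CD+VC 3 only just cleared m12_CD 3. Cps1 with VC on the control diet differed by 1.83 ± 0.60 (log2, SE; edgeR adjusted p = 0.0625), and by 1.28 without m12_CD 1 (edgeR adjusted p = 0.266), while 17.8% of genes were higher without overlap with all libraries. The same difference was called with DESeq2-style size factors in edgeR (adjusted p = 0.0322), with no filter (adjusted p = 0.00728) and without m12_CD+VC 3 (adjusted p = 0.0411). With Western diet in VC mice, Cps1 differed by -1.90 ± 0.60 (edgeR adjusted p = 0.101). Without the filter, this too was called by edgeR (adjusted p = 0.000951). In mice that breathed air, the diet difference for Cps1 was 0.05 ± 0.59 (edgeR adjusted p = 0.970), and -0.49 without m12_CD 1 (edgeR adjusted p = 0.613).

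Otc, the second enzyme, lay at 4.38, 46.3 and 28.7 CPM in m12_CD, 85.7, 88.6 and 44.6 in m12_CD+VC, 47.3, 80.3 and 46.4 in m12_WD, and 0, 38.9 and 16.4 in m12_WD+VC. The lowest library, m12_WD+VC 1, had 0 counts, which allows up to 22.3 CPM. Both groups with a single exposure lay above m12_WD+VC without overlap, and m12_WD lay above m12_CD with its lowest library at 46.4 against 46.3 CPM. The interaction for Otc was -2.58 ± 0.90 (log2, SE; edgeR adjusted p = 0.0598). It passed with DESeq2-style size factors (edgeR adjusted p = 0.0429), with a replicate block (edgeR adjusted p = 0.0438) and without any of m12_CD 2, m12_WD 3 and m12_WD+VC 2. Without m12_CD 1 it was -2.09 (edgeR adjusted p = 0.152). Its parts were 1.0 for diet without VC (edgeR adjusted p = 0.247; 0.51 without m12_CD 1) and -1.58 for diet with VC (edgeR adjusted p = 0.236).

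Asl, which splits argininosuccinate, and Arg1 varied less than Cps1 and Otc. Asl was at 35.0, 97.5 and 227 CPM in m12_CD, 122, 169.8 and 123 in m12_CD+VC, 134, 158 and 129 in m12_WD, and 119, 115 and 73.8 in m12_WD+VC. The m12_WD+VC libraries were the lowest of the 3 exposed groups, with a difference from m12_CD+VC of -0.41 ± 0.46 (log2, SE; edgeR adjusted p = 0.739). Arg1 was at 92.0, 280.3 and 476 CPM in m12_CD, 418, 376 and 273 in m12_CD+VC, 265, 307 and 163 in m12_WD, and 156, 187 and 153 in m12_WD+VC. Its difference with Western diet in VC mice was -1.09 ± 0.41 (edgeR adjusted p = 0.181), again without overlap. In that comparison Cps1, Otc, Asl, Arg1 and Oat were lower without overlap, 5 of 9 genes beside 11.9% of all genes. Entries without an opposite-strand overlap, the class of these 5, had a median of -0.23 there, against 0.17 for entries with an overlap.

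The 3 genes of periportal amino acid breakdown gave no call at 12 months. Gls2, liver glutaminase, lay at 210.2, 195 and 147 CPM in m12_CD, 213, 207 and 142 in m12_CD+VC, 96.4, 167 and 134 in m12_WD, and 149, 147 and 101 in m12_WD+VC. Over all 23 libraries it ran from 81.8 to 238 CPM, the smallest ratio of highest to lowest among the 9 genes, and its diet difference without VC was -0.47 (log2; edgeR adjusted p = 0.247). Sds, serine dehydratase, lay at 48.2, 58.5 and 51.1 CPM in m12_CD and at 52.9, 29.8 and 13.4 in m12_WD. These groups overlapped through m12_WD 1, and the difference of -0.77 (edgeR adjusted p = 0.229) became -1.45 without that library (edgeR adjusted p = 0.0462). With all libraries, Plbd2, which shares exon bases with Sds, differed by -1.55 in this comparison (edgeR adjusted p = 0.0125). Spryd4, which shares bases with Gls2, differed by -1.42 (edgeR adjusted p = 0.0201). The part of these 2 genes in the Sds and Gls2 values was not tested. Hal, histidase, had 177 counts in all. It was at 77.4 CPM in m12_CD+VC 1 and at 6.39 to 23.7 CPM in the other 11 libraries of 12 months.

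Counted together at 12 months, all 9 genes had a fitted difference above 0 for VC on the control diet, with a median log2 of 0.50. The median was 0.07 over all genes tested and 0.58 over the 1990 tested entries without an opposite-strand overlap. The count above 0 was 6 with no filter and 7 to 9 under the other settings. Without m12_CD 1 it was 6, with a median of 0.04, and Asl (-0.32) and Arg1 (-0.16) were then below 0 as was Sds. With Western diet in VC mice 8 of 9 were below 0 with a median of -1.09, beside -0.01 over all genes. For the interaction 8 of 9 were below 0 with a median of -1.36, beside -0.04 over all genes and -0.74 over entries without overlap. The median of the 9 was -0.69 with class-wise scaling, -1.97 with DESeq2 and -0.86 without m12_CD 1. These comparisons share their libraries. With VC on the Western diet, where 0.572% of genes were called, 7 of 9 were below 0 (median -0.40) and no gene of the 9 had an unadjusted p under 0.05 by edgeR, beside 10.9% of all genes. Otc and Asl were lower without overlap there, beside 8.86% of all genes. DESeq2 and limma-voom called none of the 9 in that comparison. The other 7 ran from -0.86 for Oat to 0.88 for Sds, with Hal at 0.02. Diet without VC split 5 above and 4 below 0 (median 0.05), and 3 above and 6 below without m12_CD 1 (median -0.45). Scaling by DESeq2-style size factors shifted the all-gene median by 0.41 for VC on the control diet, by -0.51 for the interaction and by 0.39 for diet without VC, where 7 of 9 genes were then above 0.

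After 12 weeks no gene of the 9 was called by edgeR, DESeq2 or limma-voom in any of 4 comparisons. The share of all genes called was 0.0238% for diet without VC, 0.524% for diet with VC, and 0% for VC on either diet. At an unadjusted p under 0.05 the edgeR counts among the 9 were 0, 1, 0 and 1, beside 5.65%, 10.7%, 4.05% and 5.6% of all genes. In VC mice Cps1 was at 421, 473 and 126 CPM in w12_CD+VC and 134, 50.3 and 198 in w12_WD+VC. These groups overlapped, with a difference of -1.43 ± 0.62 (log2, SE; edgeR adjusted p = 0.423). Glul was at 90.3, 110.3 and 66.6 CPM in w12_CD+VC and 189.6, 138 and 116 in w12_WD+VC. Every w12_WD+VC library was above every w12_CD+VC library, as it was for 8.91% of all genes, and the difference was 0.80 ± 0.44 (edgeR adjusted p = 0.536). Gls2 went the other way at 120.4, 134 and 81.8 CPM in w12_WD+VC against 186, 142 and 186, without overlap, as for 6.96% of genes, and it differed by -0.60 ± 0.32 (edgeR adjusted p = 0.505). Against w12_WD, at 161 and 238 CPM, Gls2 in w12_WD+VC was lower as well (-0.81 ± 0.35; edgeR adjusted p = 0.890), where 10% of all genes were lower without overlap. For VC on the control diet, differences over the 9 genes ran from -0.44 for Otc to 0.48 for Asl. For diet without VC they ran from -0.80 for Otc to 0.14 for Glul, with w12_WD resting on 2 usable libraries.

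Between 12 weeks and 12 months, time and age cannot be told apart from the longer feeding. In the VC groups they also cannot be told apart from the 9 months since inhalation ended. EdgeR called none of the 9 genes within any group, while 1.62% of all genes were called on the control diet, 6.38% on control diet with VC, 14.6% on Western diet and 0.786% on Western diet with VC. At an unadjusted p under 0.05 the counts were 0, 2, 2 and 1, beside 14.6%, 24.9%, 28.5% and 11.8% of all genes. DESeq2 called none and limma-voom called Oat alone, in the last of these. Arg1 was at 271, 189 and 126 CPM in w12_CD+VC, all below the 273 to 418 CPM of m12_CD+VC, and differed by 0.85 (log2; edgeR adjusted p = 0.185). Higher values without overlap were found for 15.8% of genes there. On Western diet, Asl was at 82.9 and 34.0 CPM in w12_WD against 129 to 158 in m12_WD (1.12; edgeR adjusted p = 0.163). Glul was at 117 and 25.5 CPM against 149 to 178 (0.98; edgeR adjusted p = 0.176). Both were higher without overlap, as were 26% of all genes. Over the 9 genes the differences ran from -1.19 for Otc to 0.96 for Asl on the control diet, from -0.02 for Sds to 1.11 for Glul on control diet with VC, from -0.59 for Gls2 to 1.12 for Asl on Western diet, and from -1.53 for Oat to 0.54 for Sds on Western diet with VC. Hal lay between -0.79 and 0.39 in these 4 comparisons.

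Ratios of counts within a library do not depend on how libraries are scaled. Glul counts per Arg1 count were 0.195 to 0.286 in m12_CD and 0.493 to 0.918 in m12_WD, with no overlap. They were 0.179 to 0.959 in m12_CD+VC and 0.536 to 1.10 in m12_WD+VC. The pericentral enzyme was thus higher relative to the portal-side enzyme in all libraries of m12_WD and of m12_WD+VC than in any of m12_CD. Glul per Cps1 was lowest, at 0.105, in m12_CD+VC 1 and highest, at 2.79, in m12_WD 3, and m12_CD (0.397 to 1.20) overlapped m12_WD (0.733 to 2.79). The ratio of the 2 pericentral genes moved too. Oat per Glul was 0.833 to 1.76 in m12_CD and 0.310 to 0.758 in m12_WD. With both exposures it was 0.317 to 0.435 at 12 months against 0.788 to 1.12 at 12 weeks. The ratios were not tested.

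**Figure D3:**
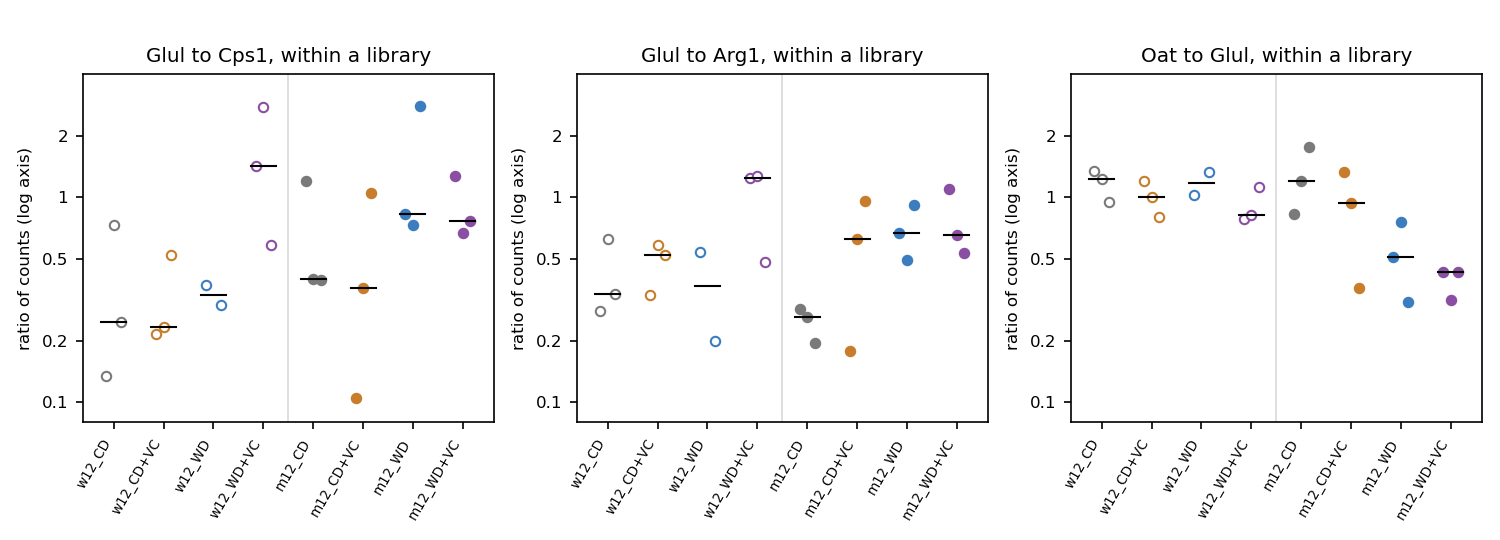
Ratio of counts within each library on a log axis for Glul to Cps1, Glul to Arg1 and Oat to Glul, by group, with a line at the median. Glul to Arg1 in m12_CD lay at 0.195 to 0.286, below all libraries of m12_WD and m12_WD+VC.

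Correlations were taken across the 23 libraries, whose points share library, depth and scaling. Over the 6 pairs of urea cycle genes, Pearson's r of log2 CPM ran from 0.44 for Otc with Asl and 0.50 for Cps1 with Asl to 0.79 for Cps1 with Arg1 and 0.80 for Asl with Arg1. Pairs across the zones reached values within this range, at 0.66 for Asl with Glul, 0.63 for Arg1 with Oat, 0.63 for Cps1 with Oat and 0.60 for Asl with Oat, while r was 0.32 for Cps1 with Glul and -0.51 for Gls2 with Glul, and within the pericentral pair it was 0.62. By the highest r over the same libraries, the genes most like Cps1 were Serpina1d (0.88), Tdo2 (0.87), Uox (0.87), Adipor2 (0.87) and Rgn (0.84). Those most like Glul were Cyb5a (0.87), Cyp2e1 (0.87), Iqgap2 (0.85), Cyp2d26 (0.85) and Acaa1a (0.84). The share of a library's counts in entries without an opposite-strand overlap had an r of 0.74 with Asl, 0.67 with Arg1, 0.64 with Glul, 0.54 with Cps1 and -0.11 with Gls2. Its part in the results above was not tested. In a fit that scaled each class by itself, Glul had edgeR adjusted p-values of 0.0179, 0.0257 and 0.0263 in its 3 called comparisons. Glul is an entry with an overlap and was scaled there with its own class, so that fit cannot test this part. The interaction median of the 9 genes was -0.69 in that fit, against -1.36.

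**Figure D4:**
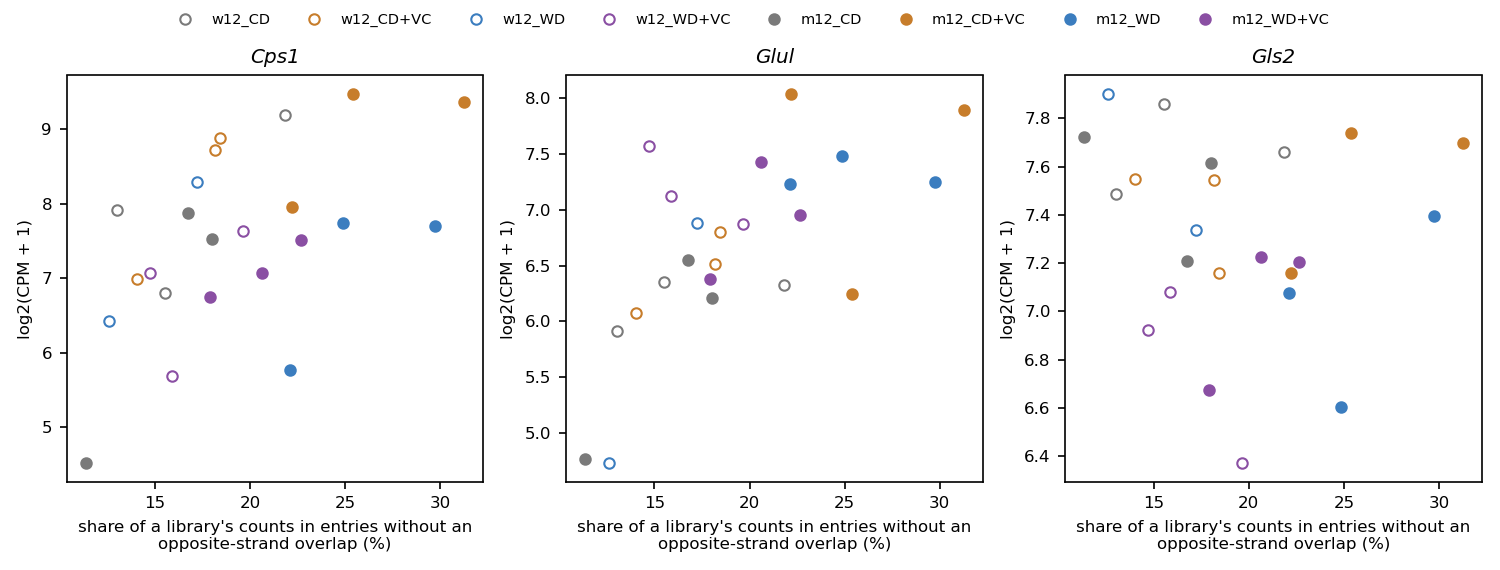
Level of Cps1, Glul and Gls2 as log2(CPM + 1) against the percent of a library's counts in entries without an opposite-strand overlap, 1 point per library. Cps1 and Glul were higher in libraries with a larger share (r of 0.54 and 0.64 across 23 libraries), and Gls2 was not (-0.11).

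The rest of the nitrogen pathway was read from lists of genes. Their calls rest on few libraries: without m12_CD 1, edgeR called 0 of 4763 genes for VC on the control diet (794 at an unadjusted p under 0.05, and DESeq2 called 31), so each call named below for that comparison was then lost. For diet with VC, edgeR called 2 genes of all without m12_WD+VC 2, against 76, and neither was a gene named below. For diet without VC, 645 genes were called without m12_CD 1, against 1028 with all libraries, which was 24.5% of the genes tested. Of the cofactor and carrier genes of the urea cycle other than Ass1, 7 of 8 were tested, and Nags alone was called at 12 months. Nags makes N-acetylglutamate, without which Cps1 is inactive. It was at 293, 239 and 201 CPM in m12_CD, 158, 133 and 145 in m12_CD+VC, 94.5, 89.4 and 54.6 in m12_WD, and 186, 114 and 148 in m12_WD+VC. Nags fell with Western diet without VC by 1.63 ± 0.31 on the log2 scale (edgeR adjusted p = 0.000309), with no overlap, while Cps1 differed by 0.05. It was called under each alternative and without each library in turn. Nags also had a positive interaction of 1.62 (edgeR adjusted p = 0.0215), lost in 4 of 7 alternatives. Exons of Nags overlap an antisense gene, Gm11586, so its reads may not be separated.

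Of 15 genes that supply ammonia or move amino groups, 10 were tested. Gpt, alanine aminotransferase, rose with Western diet without VC from 25.9 ± 19.2 to 82.6 ± 19.4 CPM (SD, n = 3), by 1.56 ± 0.46 (log2, SE; edgeR adjusted p = 0.0140). The call was lost without m12_CD 1 (edgeR adjusted p = 0.113), without m12_WD 1, with no filter and with class-wise scaling. The list's median was 0.57 in that comparison, beside 0.11 over all genes. Of 38 amino acid breakdown genes, 35 were tested, and with diet without VC 4 rose and 1 fell, a share below the 24.5% of all genes called (median 0.56, beside 0.48 over entries without overlap). Fah, Hgd, Bhmt and Sardh rose, the first pair being enzymes of tyrosine breakdown and Bhmt the enzyme that remethylates homocysteine with betaine, and Acmsd, of tryptophan breakdown, fell by 1.48 (edgeR adjusted p = 0.00747). Without m12_CD 1, Acmsd alone of these 5 was called. With VC on the control diet 4 rose (median 1.10, beside 0.07 over all genes and 0.58 over entries without overlap), led by Aldh7a1, of lysine breakdown, at 1.42 (edgeR adjusted p = 0.0227). Of all genes tested, 4.1% were called higher there. For the interaction 5 of the list were lower, beside 6.48% of all genes. Aldh7a1 was among them at -2.01 (edgeR adjusted p = 0.0144), and the list median was -1.56. None of the 5 was called without m12_CD 1 (Aldh7a1 edgeR adjusted p = 0.0518). With Western diet in VC mice Aldh7a1 fell by 1.40 (edgeR adjusted p = 0.0361). So did the amino acid transporter Slc38a4, by 1.58 (edgeR adjusted p = 0.0295), 1 of 7 tested transport genes, where 1.81% of all genes were called. Each lost its call without any of m12_CD+VC 2, m12_WD+VC 1, 2 and 3, and Slc38a4 also without m12_CD+VC 1. Aldh7a1, Acmsd, Bhmt and Sardh share exon bases with an opposite-strand gene, so their reads may not be separated.

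**Figure D5:**
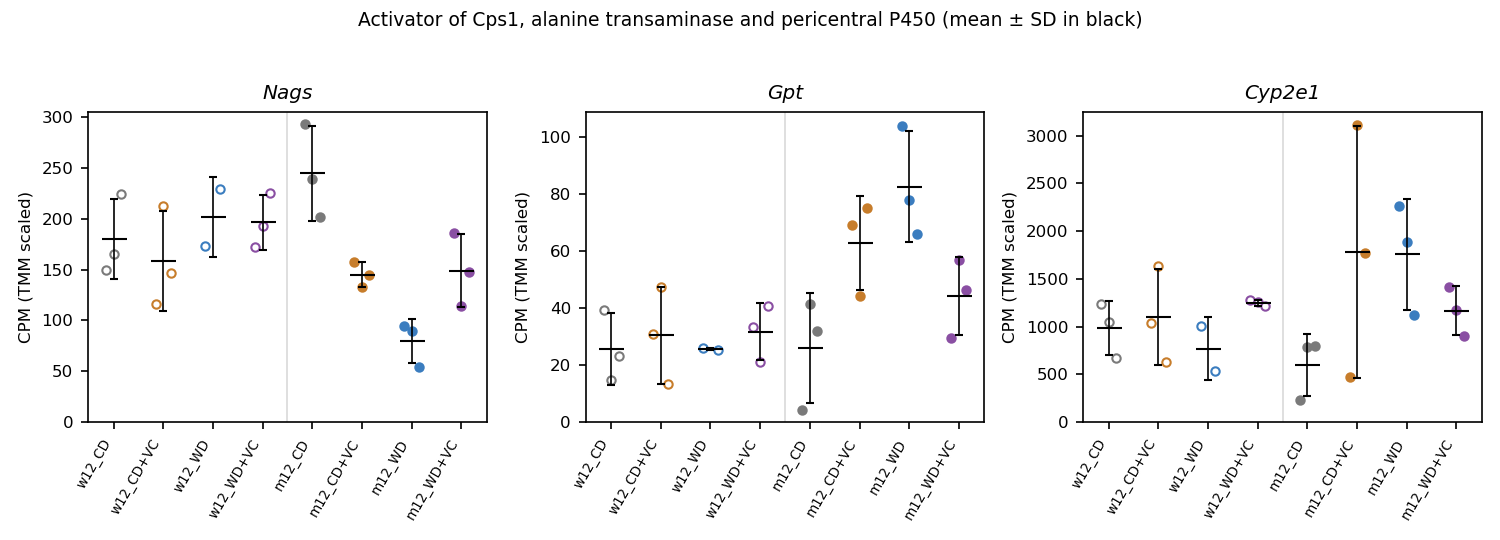
Level in CPM of Nags, Gpt and Cyp2e1 in each library, by group, with the mean ± SD. Nags lay at 54.6 to 94.5 CPM in m12_WD, below every m12_CD library, which lay at 201 to 293 CPM.

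Genes that mark either zone of the lobule were among those called, and the zones were not tested against each other. Of 9 tested periportal markers outside the 10 genes, 4 rose with Western diet without VC (Pigr, Itih3, Hsd17b13 and Serpina1b) with a median of 0.61. In that comparison 24.5% of all genes tested were called and 13.4% were called higher. The median was 0.11 over all genes and 0.48 over entries without overlap. Of 15 tested pericentral markers, Cyp2e1, the cytochrome that oxidises VC and ethanol, rose by 1.53 (log2; edgeR adjusted p = 0.0111) and the transporter Slc22a3 fell by 3.33 (edgeR adjusted p = 9.92e-05), with a median of 0.53. Without m12_CD 1, Cyp2e1 was not called (1.08; edgeR adjusted p = 0.103), nor were Hsd17b13 and Serpina1b. Slc22a3 shares exon bases with an opposite-strand gene. With VC on the control diet Cyp1a2 and Cyp2e1 rose, the latter by 1.54 (edgeR adjusted p = 0.0411), Slc22a3 fell, and Serpina1b rose on the periportal side. Without m12_CD 1 the edgeR adjusted p of these 4 was 0.0936, 0.234, 0.116 and 0.153. With all libraries, 5.22% of all genes tested were called there, and 1.81% were called for Western diet in VC mice. In VC mice, Western diet lowered the periportal Pck1, an enzyme of glucose synthesis, by 1.70 (edgeR adjusted p = 0.0267) and the pericentral Cyp2c29 by 2.49 (edgeR adjusted p = 0.0244), and both calls were lost without any of m12_CD+VC 2, m12_WD+VC 1, 2 and 3, and that of Pck1 without m12_CD+VC 1. For the interaction, 3 periportal markers and 4 pericentral markers were lower and Slc22a3 was higher, and without m12_CD 1 Serpina1b alone was called. With all libraries, 6.48% of all genes tested were called lower. Pigr was the periportal gene called for VC on the Western diet, with a difference of -1.29 (edgeR adjusted p = 0.0317), a call kept without m12_WD 2 and lost without any other library.

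Of 21 regulators, 12 were tested. Ppara, the receptor that drives fat oxidation in fasting, was at 4.31 ± 4.97 CPM in m12_CD and 47.1 ± 25.4 in m12_WD (SD, n = 3), a rise of 3.09 on the log2 scale (edgeR adjusted p = 0.00244). In m12_CD, 3 counts equalled 7.31 to 13.1 CPM, so its mean there lay below 3 counts and the size of the rise is uncertain. Ppara also rose with VC on the control diet, by 2.71 (edgeR adjusted p = 0.0403), and by 2.25 without m12_CD 1 (edgeR adjusted p = 0.176). Creb3l3 rose by 0.97 with Western diet without VC (edgeR adjusted p = 0.0464; 0.242 without m12_CD 1), and Cebpa, a C/EBP factor that acts on urea cycle genes, fell by 1.21 (edgeR adjusted p = 0.00205), though it shares exon bases with an opposite-strand gene. For diet without VC, 24.5% of all genes tested were called, and the median over the regulators was 0.07, beside 0.11 over all genes. For VC on the control diet 4.1% of all genes were called higher. In VC mice Western diet gave no call among the regulators, beside 1.81% of all genes.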

How the data were processed

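Liver RNA of 8 groups with 3 libraries each was depleted of ribosomal RNA, made into TruSeq RNA v2 libraries and sequenced on a HiSeq2500 instrument, per the labels' protocols. The submitters' processing notes name Trimmomatic 0.38, HISAT2 2.1.0, HTSeq 0.11.2 and mm10. No source used here gives the annotation, strand setting or filters. The authors deposited whole-number counts per gene in a series table and, per sample, log2 values of counts over size factors plus 1. The counts were used, and the log2 values were only checked against them.

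The test was the edgeR 4.0.16 quasi-likelihood test (R 4.3.3) with its expression filter (4198 genes), TMM scaling, 24 libraries in one fit and Benjamini-Hochberg adjustment over all genes tested, at 0.05. There were 13 comparisons, and 1 interaction of diet and time with VC was added after seeing Oat. Genes were placed on GENCODE M21 (GRCm38) by symbol, and opposite-strand overlaps were found with bedtools 2.31.1. Correlations between genes used log2 CPM with a prior count of 2 in libraries of at least 100000 counts. Those with the share of counts in entries without an overlap used log2(CPM + 1) in the same libraries.  Alternatives were RLE (DESeq2-style) scaling, no filter, DESeq2 1.42.0, limma-voom 3.58.1 with quality weights, class-wise TMM, a replicate block, each library left out, and, added after seeing the data, w12_WD 3 left out and DESeq2 without m12_CD 1.

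The rule for named genes took all 10 genes in every comparison, of which those not named singly are given by ranges or counts, up to 3 genes of each other list with the smallest adjusted p among those called, and the 5 genes most like Cps1 and Glul. Hgd, Sardh and Serpina1b in diet without VC at 12 months fall outside this rule and were named after their values were seen, to complete a count. Some list genes picked by the rule are not named above for their comparison. At 12 weeks this was Slc22a3 for diet with VC (-2.56 on the log2 scale; edgeR adjusted p = 0.0367). Over time they included Nags (-1.30; edgeR adjusted p = 0.0111) and Gpt (1.67; edgeR adjusted p = 0.0472) on Western diet without VC. Cyp2f2 was among them on control diet with VC (1.34; edgeR adjusted p = 0.0288). Several cell type markers were given only by sums or counts. The genes and lists were chosen with earlier results of these data known.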

Additional observations from a re-analysis of the deposited data

Results flagged for a closer look

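At 12 months the diet effect differed between VC and air by the interaction test (edgeR adjusted p under the threshold) for Glul at -1.91 on the log2 scale and for 14 other named genes. Lower diet effects with VC were found for Gpt (-2.02), Aldh7a1 (-2.01), Fah (-2.07), Hgd (-2.45), Serpina1b (-2.50), Hsd17b13 (-2.17), Itih3 (-1.67), Cyp2c29 (-3.12), Cyp2e1 (-2.13) and Ppara (-3.51). Higher diet effects with VC were found for Nags (1.62), Slc22a3 (3.20), Cebpa (1.53) and Tcf7l2 (1.73). Without m12_CD 1, the interaction was called for Serpina1b and Cebpa alone of these 15.

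For Otc, all m12_WD libraries lay above m12_CD (1.0) and all m12_WD+VC libraries below m12_CD+VC (-1.58), with an interaction of -2.58 (edgeR adjusted p = 0.0598). For Oat, Western diet with VC gave 0.56 at 12 weeks and -1.53 at 12 months, each without overlap. The difference, -2.09, was tested after seeing these values (edgeR adjusted p = 0.445), where 0.0238% of all genes were called.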

How the results depend on the processing

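The 3 Glul results kept their sign in all 45 alternative settings, and the calls were lost in the settings named above. Of the 123 results not called, 51 changed sign in at least 1 setting. The number of the 9 genes called moved as follows. For diet without VC at 12 months it was 0 with no filter and 0 to 1 with a library left out. For diet with VC at 12 months it was 1 with no filter (Cps1) and 1 with limma-voom (Oat). For VC on control diet it was 2 with RLE scaling, 0 with limma-voom, 0 without w12_WD 3 and 0 to 1 with a library left out. For the interaction it was 2 with RLE scaling, 0 with no filter, 0 with limma-voom, 0 without w12_WD 3 and 0 to 3 with a library left out. For time on Western diet with VC it was 1 with limma-voom (Oat). With the replicate block the interaction count was 2. Libraries were not paired by replicate number in the main fit. No comparison had all 3 pairs correlated over 0.1, and in 1 of 12 did every library match its own number best. With 3 libraries in each group, this cannot exclude pairing.

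Over all genes, the count called for VC on control diet at 12 months was 219, 103 to 442 under the alternatives and 0 to 219 with a library left out. For diet without VC it was 1028 (731 to 1168, and 645 to 1069 with a library left out), for the interaction 412 (232 to 520, and 87 to 626) and for diet with VC 76 (44 to 159, and 2 to 72). RLE scaling gave 434 higher and 8 lower for VC on control diet, against 172 and 47. Glul had 6 to 145 counts in a 12-month library, which limits its precision. The cause of each lost call was not tested.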
